A study of Drosophila melanogaster with 14 samples.

Results

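The genes described here are the muscle contractile genes of the fly head. A list of 10 genes was searched for in the probe annotation of the array, by current symbol or older synonym, and 6 of them were found, each with 1 probe set (Act88F, Mlc1, Mlc2, Tm2, up and Argk1), among 11981 genes that a probe set names alone. Act57B, Mhc, wupA and Tm1 were not analysed here. Heads of control (w1118) flies and of fmn flies, a dopamine transporter mutant backcrossed to w1118, were collected from frozen males and females that had been kept in cycles of light and dark. RNA of each pool of heads was hybridized to 1 Affymetrix Drosophila Genome 2.0 array, with 7 arrays per genotype, every 4 h from ZT 0 to ZT 24 (zeitgeber time in hours, with the lights on from ZT 0 to ZT 12). Each time point has 1 array per genotype, so the 7 arrays of a genotype serve as its replicates and their spread includes any change over the day. The unit throughout is the linear MAS5 signal, the brightness of a probe set, which cannot be set against that of another gene.

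Muscle contracts when heads of the motor protein myosin pull on filaments of actin. Each myosin head carries an essential and a regulatory light chain, and in muscle the access to actin is set by tropomyosin and the troponin complex, which respond to calcium. In insects, arginine kinase refills the ATP of such cells from arginine phosphate. The head holds the muscles of the mouthparts and antennae, whereas the large muscles of flight lie in the thorax. The actin of Act88F is best known from the indirect flight muscle, so its signal was read here as a possible sign of thorax tissue among the heads.

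The arrays were similar in brightness, with 75th percentiles of 566 to 575 in control and 563 to 584 in fmn. DAT, the mutated gene, had signals of 471 to 619 on the control arrays and 1.43 to 14.5 on the fmn arrays. Markers of the head were present on every array, with elav, nSyb and brp of neurons, repo, moody and alrm of glia and trp, Arr1 and Arr2 of the eye all at signals of at least 100. The array of fmn at ZT 12 stood apart in elav, with a signal of 612 against 2174 to 2335 on the other fmn arrays and 823 to 1108 on the control arrays. Of the other neuronal genes, nSyb was at its lowest fmn signal there (1466 against 1793 to 2105) and brp at its highest (227 against 140 to 195). Transcripts of other organs stood out on 3 arrays. Of 10 testis genes, 8 had a signal of at least 100 on the arrays of control at ZT 0 and fmn at ZT 4, and none on the other 12 arrays, and of 9 genes of the male accessory gland 7 did so on these arrays. On the array of fmn at ZT 8, 4 of 9 ovary genes passed this level, and on no other array did any. For the 14 gut genes, the summed signal was 3208 for control at ZT 0, 2273 for fmn at ZT 4 and 5936 for fmn at ZT 8, and at most 343 on the rest. The log2 ratio of the 3' to the 5' control probe set of GAPDH, a measure of RNA integrity, ran from 1.12 to 1.45 in control and from 0.92 to 1.29 in fmn. Its part in the results was not tested.

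Act88F was measured on all 14 arrays, and its level varied from array to array far more than that of the other 5 genes. In control heads its signal was 635 at ZT 0, 319 at ZT 4, 303 at ZT 8, 324 at ZT 12, 334 at ZT 16, 242 at ZT 20 and 173 at ZT 24. In fmn heads it was 195 at ZT 0, 471 at ZT 4, 369 at ZT 8, 435 at ZT 12, 268 at ZT 16, 227 at ZT 20 and 192 at ZT 24. The highest signal of each genotype was thus on an array that also held transcripts of testis and male accessory gland, and the lowest was at ZT 24 in both. On the 12 arrays other than these, Act88F still ranged from 173 to 435 (median 285). The genotypes overlapped, with means of 333 ± 145 in control and 308 ± 116 in fmn (SD, n = 7 arrays each), so that log2 fmn minus control was -0.11 (SE 0.26, 95% interval -0.67 to 0.44, adjusted p = 0.812 by limma). The difference was 0.059 without the control array of ZT 0, -0.06 without that array and the fmn array of ZT 4, and -0.15 without these and the fmn array of ZT 8.

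Other genes of the thoracic muscles were followed beside Act88F. The flightin gene fln, which encodes a thick filament protein of the flight muscle, had a signal of 404 on the array of control at ZT 0 and of 130 on that of fmn at ZT 4. On the other 12 arrays it lay between 12.2 and 41.9. TpnC4, a troponin C of the flight muscle, had signals of 123 and 166 on these arrays and of at most 13.4 elsewhere. These genes therefore reached a signal of 100 on the same pair of arrays, and stayed far below it on the remaining 12. Act79B, another actin of thoracic muscle, was also highest there, with 640 for control at ZT 0 and 639 for fmn at ZT 4, against 301 to 527 on the rest. TpnC41C, a second troponin C, showed no such peak, and its signals of 1867 and 1659 on those arrays lay within its range of 1358 to 1921. Antp and tsh are active in the trunk, and the signal was under 100 on all arrays for Antp and above it on most arrays for tsh. The brightest probe set of Antp reached at most 84.8, and tsh ranged from 88.0 to 169 without a peak on that pair of arrays. What part thorax tissue has in the signal of Act88F was not tested.

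**Figure D1:**
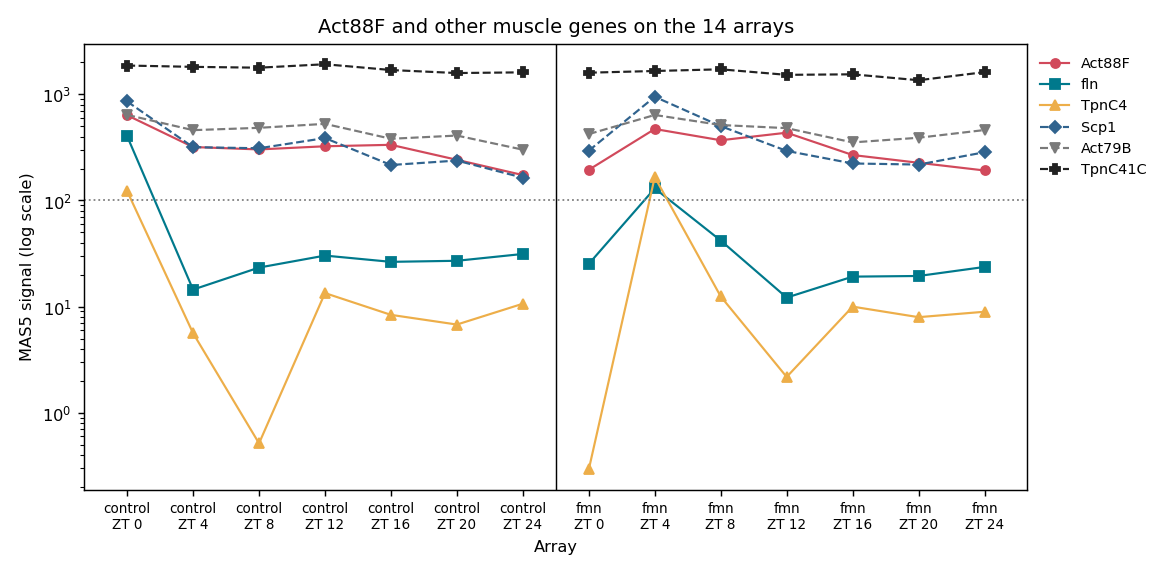
MAS5 signal (log scale) of Act88F and of fln, TpnC4, Scp1, Act79B and TpnC41C on each of the 14 arrays, 7 of control on the left and 7 of fmn on the right, ordered by zeitgeber time. The dotted line marks a signal of 100, which fln and TpnC4 pass only on the arrays of control at ZT 0 and fmn at ZT 4.

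Mlc1 encodes the essential light chain of muscle myosin. Its signal in control heads was 6036 at ZT 0, 5694 at ZT 4, 6038 at ZT 8, 5858 at ZT 12, 5429 at ZT 16, 5097 at ZT 20 and 5230 at ZT 24. In fmn heads the signals were 4974, 4973, 5195, 4992, 4898, 4762 and 4778 in the same order of times. The fmn signal of Mlc1 was the lower one at each of the 7 times, and 6 of the 7 fmn arrays lay below every control array. The means were 5626 ± 381 in control and 4939 ± 147 in fmn (SD, n = 7 arrays each), or -0.20 on the log2 scale (SE 0.05, adjusted p = 0.00749 by limma). A gene was counted as changed at an adjusted p under 0.05 and a log2 difference of at least 0.32 in size, the fold threshold of the study's methods, so Mlc1 was not counted as changed.

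Mlc2, the gene of the regulatory light chain, was nearly equal in the 2 genotypes at every time. In control heads its signals were 3409 at ZT 0, 3701 at ZT 4, 3487 at ZT 8, 3369 at ZT 12, 3298 at ZT 16, 2980 at ZT 20 and 3077 at ZT 24, and in fmn heads they were 3353, 3708, 3317, 3336, 3285, 3010 and 3017. The fmn signal was between 95.1% and 101% of the control signal of the same time. On the log2 scale the genotypes differed by -0.03 (SE 0.06, adjusted p = 0.754 by limma), and the 95% interval of -0.15 to 0.09 lies inside the threshold of size in both directions. After centring, the fmn array was the lower one at 6 of the 7 times, all but ZT 20, and the difference between the 2 light chain genes was not tested.

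Tm2 encodes a tropomyosin of muscle, which lies along the actin filament. Its signal ranged from 2724 to 3056 (median 2915) in control and from 2556 to 2857 (median 2633) in fmn. The ranges overlapped, though 4 of the 7 fmn arrays lay below every control array, and Tm2 was lower in fmn at 6 of 7 time points, all but ZT 12. The difference of -0.12 on the log2 scale (SE 0.04) had an adjusted p of 0.0538 in limma, and of 0.0267 to 0.370 over the alternatives. The suffix of its probe set is the one that Affymetrix gives where probes may match transcripts of further genes, so this value is not certain to be that of Tm2 alone.

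The gene up encodes troponin T, which ties the troponin complex to tropomyosin. Its signal ranged from 1544 to 1742 (median 1648) in control and from 1468 to 1710 (median 1607) in fmn, and the ranges overlapped widely. The genotypes differed by -0.07 on the log2 scale (SE 0.04, 95% interval -0.16 to 0.02, adjusted p = 0.275 by limma). After centring, the fmn array was the lower one at 6 of the 7 times, all but ZT 8, and at ZT 4 the uncentred fmn signal was 101% of that of control.

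Argk1 was the only one of the 6 genes that passed both thresholds. Arginine kinase serves muscle and other tissues with a high use of ATP, such as the eye and the nervous system. In control heads its signal was 15666 at ZT 0, 16920 at ZT 4, 17498 at ZT 8, 16316 at ZT 12, 16628 at ZT 16, 15808 at ZT 20 and 14829 at ZT 24. In fmn heads the signals were 13126, 12672, 12496, 15344, 11873, 12578 and 13540. Every fmn array but that of ZT 12 lay below every control array, and at ZT 12 the fmn signal was 94.0% of the control signal. At the other times it was 71.4% to 91.3%. Argk1 fell from 16238 ± 886 to 13090 ± 1122 (SD, n = 7 arrays each), or by -0.33 on the log2 scale (SE 0.06, adjusted p = 0.00162 by limma), and was below control at each of the 7 times. Markers of the eye moved too: the summed signal of trp, Arr1 and Arr2 was 63563 to 75323 in control and 50747 to 64278 in fmn, and its part in the result was not tested. The change of Argk1 sits on the threshold of 0.32. It was smaller than that without scaling of the arrays (-0.31), under quantile normalization (-0.19), with the 3 arrays that held transcripts of testis, ovary or gut left out (-0.31) and without any 1 of the arrays of control at ZT 4 or ZT 8 or of fmn at ZT 4, ZT 8, ZT 16 or ZT 20 (-0.30 to -0.32), while the adjusted p stayed at 0.0368 or less in all 24 alternatives. Without the fmn array of ZT 12 the change was -0.37 (adjusted p = 0.000123 by limma).

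**Figure D2:**
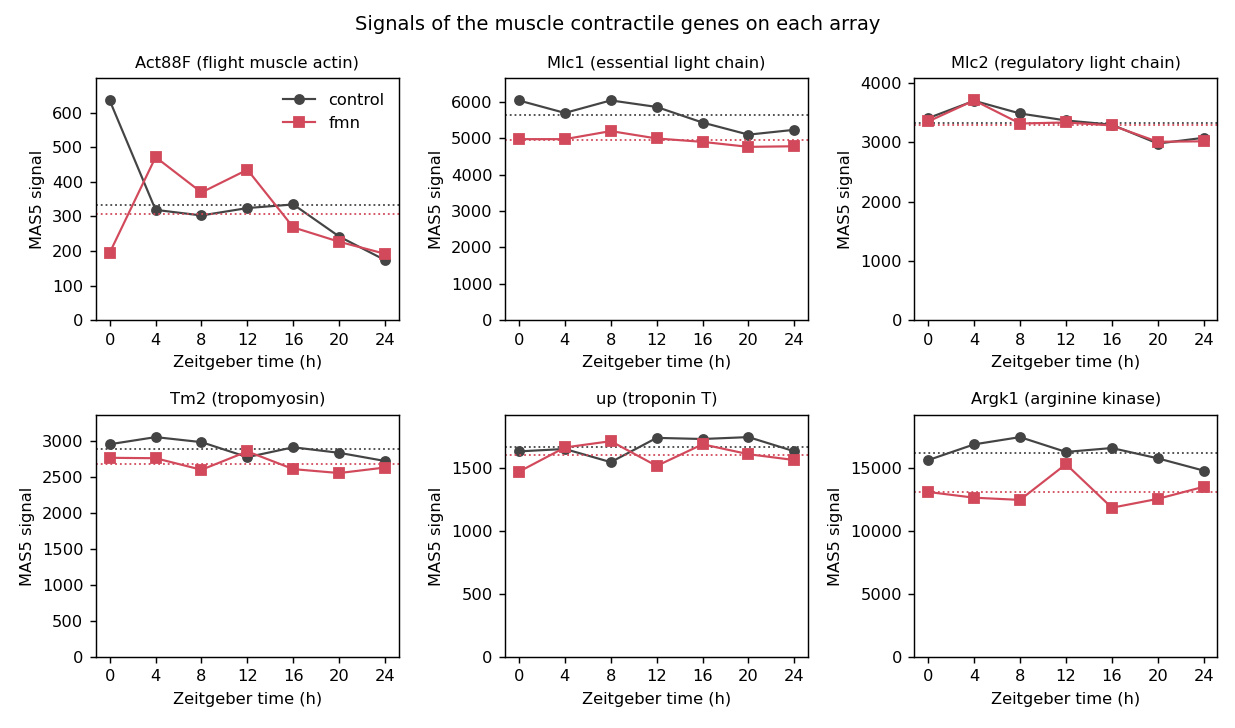
MAS5 signal (linear scale from 0) of the 6 genes against zeitgeber time in hours, with 1 array per point, control as circles and fmn as squares, and the mean of each genotype as a dotted line. In Argk1 and Mlc1 every square lies under the circle of its time, the curves of Mlc2 lie on each other, and Act88F moves between 173 and 635.

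Of the 6 genes, 0 were higher and 1 was lower in fmn heads by both thresholds. For comparison, 629 of the 8641 probe sets tested changed (7.28%), with 3.7% higher and 3.58% lower. This is a balance of 320 higher and 309 lower that turned to 205 and 313 with each array centred on its median. At an adjusted p under 0.05 and any fold, 2 of the 6 were lower, against 11.2% of all probe sets. All 6 had a log2 difference below 0, against 56.7% of all probe sets, and their median was -0.12 against -0.02 for all. Of the 6, 2 were lower at all 7 time points (13% of all probe sets), and 0 had every fmn array below every control array (2.73%). With so few genes, chosen with earlier results known, these counts describe the genes and are no test of the group. In RNA of whole heads, fewer muscle cells and less RNA per cell cannot be told apart. The paper also traced a very low fmn signal of the integrin gene scb to base substitutions under its probe set. Whether such substitutions touch the probe sets given here was not tested.

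**Figure D3:**
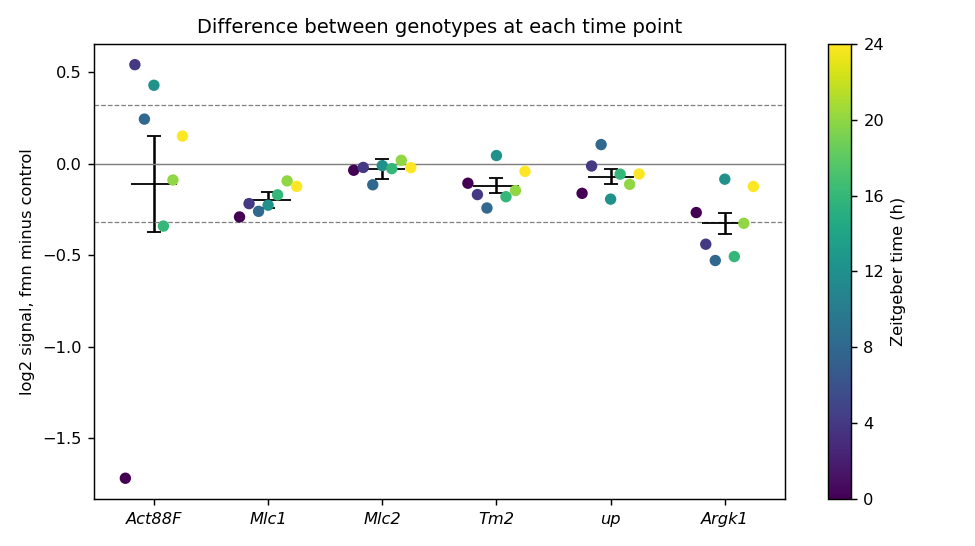
Difference of the log2 signals, fmn minus control, at each of the 7 time points for the 6 genes (points, coloured by zeitgeber time), with the mean and its standard error from limma (black). Dashed lines mark a log2 difference of 0.32 in either direction, and the point of Act88F at ZT 0 lies at -1.72.

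Of the other genes of the contractile apparatus, some were lower in fmn heads and none were higher when each was taken by its brightest probe set. A list of 27 further genes was drawn up, of which 22 had a probe set that names them alone and 19 passed the filter on dim signals. Of these 19, 0 were higher and 2 were lower by both thresholds, namely tn and Msp300, where 3.58% of all probe sets were lower. The gene tn (thin), which maintains the sarcomere, fell from 1226 ± 75.9 to 824 ± 137 (SD, n = 7 arrays each), which is -0.60 on the log2 scale (SE 0.09, adjusted p = 0.000367 by limma). Its signals were 1141 to 1356 on the control arrays and 664 to 1030 on the fmn arrays, so the genotypes did not overlap. The probe set of tn carries the same suffix as that of Tm2, as do those of Act87E and the brightest of tmod. These values are therefore not certain to be those of the named gene alone. Msp300, a giant protein of the nuclear envelope that places nuclei in muscle, fell by 0.56 on the log2 scale (SE 0.13, adjusted p = 0.00718 by limma). Its signals were 1487 to 1799 in control and 844 to 1617 in fmn, and the fmn arrays of ZT 16, ZT 20 and ZT 24 were the lowest. This holds for the brightest probe set of Msp300 only. None of its dimmer ones passed. Those that the filter kept had log2 differences of -0.03 and 0.31. The others were left out by the filter, and their log2 differences ran from -0.24 to 0.24.

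At any fold, 8 of the 19 genes were lower and 0 were higher at an adjusted p under 0.05, where 11.2% of all probe sets were lower. Besides tn and Msp300 these were Zasp66 (-0.24), a protein of the Z-disc, the thick filament genes Mf (-0.23) and Prm (-0.21), the calcium release channel gene RyR (-0.15), the actin gene Act87E (-0.15) and the muscle LIM protein gene Mlp60A (-0.14), each as a log2 difference with an adjusted p of 0.00414 to 0.0395 in limma. With the time point as a block RyR was lost (adjusted p = 0.0625 by limma, lower at 5 of 7 times) and TpnC41C (0.0261) and tmod (0.0443) passed. The titin-like genes bt (-0.05) and sls (0.00), the alpha-actinin gene Actn (-0.07) and the calcium pump gene SERCA (-0.10) did not pass. The median of the 19 was -0.14 and 16 of them were below 0, against -0.02 and 56.7% over all probe sets. The summed signal of the 22 genes was 61479 to 64437 on the control arrays and 53348 to 58748 on the fmn arrays, without overlap. Bright genes such as Mf and SERCA weigh most in this sum. Taken alone, 1 of the 19 tested genes had no overlap between the genotypes, and 433 of all 8641 probe sets had none, in either direction. Of the markers of other tissues, those of the eye and fat body were lower in fmn too, though with overlap. A sum over 22 genes averages more than one over 3 or 5, so overlap cannot be compared between these lists. The median sum of the 3 eye genes was 66947 in control and 58697 in fmn. That of 5 fat body genes was 69632 (65425 to 82850) in control and 61756 (52227 to 74012) in fmn. The fat body sum was mostly that of the yolk protein genes Yp1, Yp2 and Yp3, and the shares of males and females in the pools are not given. The median sums of glia and neurons were not lower in fmn. They were 4680 in control and 4789 in fmn for glia, and 3274 and 4372 for neurons. Of the neuronal genes, only elav was higher on most fmn arrays. The signal of nSyb ran from 1858 to 2260 in control and from 1466 to 2105 in fmn. That of brp ran from 180 to 278 and from 140 to 227, and was lower in fmn at all times but ZT 12. The part of these tissues in the result was not tested. Over all probe sets, 970 were lower by the same rule. With each array centred on its median these numbers became 2 of 19 and 336 of all, with no filter on dim signals 3 and 491, and with the 3 arrays that held transcripts of testis, ovary or gut left out 4 and 490. They were 5 and 843 without scaling and 5 and 796 under quantile normalization. Leaving out 1 array gave 5 and 772 for control at ZT 8, 4 and 785 for control at ZT 12, 4 and 720 for fmn at ZT 4, and 4 and 912 for fmn at ZT 20. Mlc-c, the only gene of cytoplasmic actomyosin that was measured out of a list of 5, differed by -0.05 (adjusted p = 0.516, limma).

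**Figure D4:**
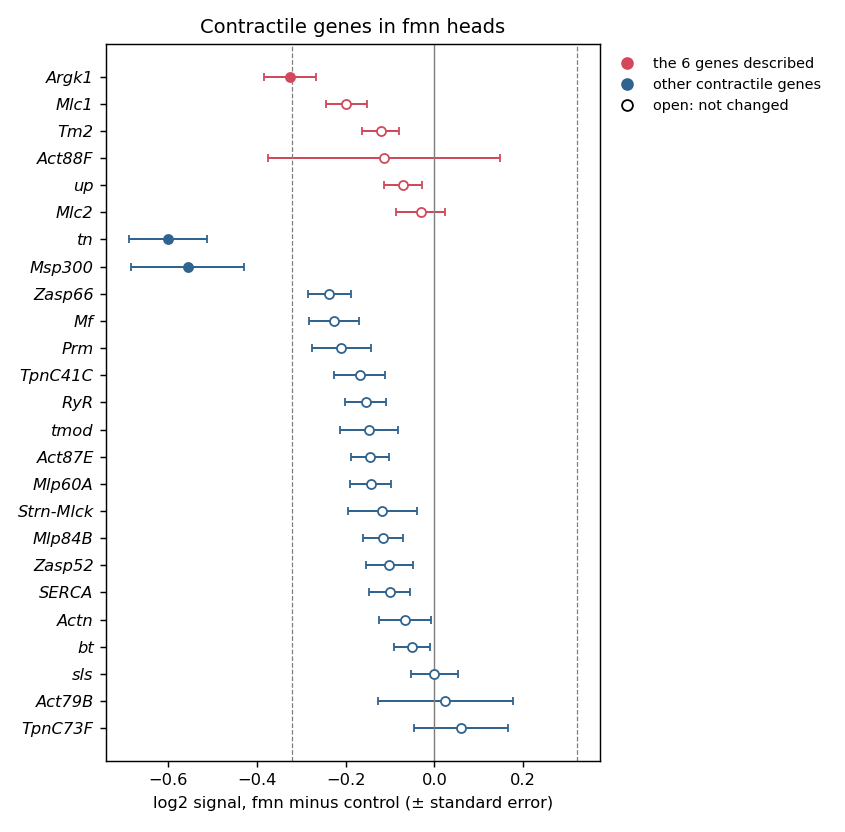
Log2 difference of fmn minus control with its standard error from limma (n = 7 arrays each) for the 6 genes (red) and the 19 other contractile genes that were tested (blue), where filled points passed both thresholds and dashed lines mark a log2 difference of 0.32. Most points lie between -0.25 and 0, and Argk1, tn and Msp300 are filled.

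None of the 6 genes had a daily rhythm that passed the test in either genotype. The light chain gene Mlc2 was highest at ZT 4 and lowest at ZT 20 in both, with a fitted 24 h amplitude of 0.13 on the log2 scale in control (standard error 0.05) and 0.09 in fmn (standard error 0.05) and peaks at ZT 6.84 and ZT 6.59. For Mlc1 the highest array was that of ZT 8 and the lowest that of ZT 20 in either genotype, and the amplitudes were 0.10 and 0.04. Neither passed limma's F test of a rhythm, with an adjusted p of 0.358 and 0.567 for Mlc2 and of 0.373 and 0.826 for Mlc1 in control and fmn. Act88F had an amplitude of 0.08 in control and 0.61 in fmn, with standard errors of 0.26 and 0.25 and an adjusted p of 0.980 and 0.342 in limma. Of the 6 genes, 0 were rhythmic in control and 0 in fmn, where 5.14% and 4.28% of all probe sets passed, and 0 of the 6 had an unadjusted p under 0.05 in either genotype (18.3% and 18.4% of all). For the difference in rhythm, the adjusted p in limma was 0.998 for each of the 6, and of all probe sets 0 passed, with 4.13% at an unadjusted p under 0.05. Of the 19 other contractile genes tested, 1 was rhythmic in control and 2 in fmn, beside the same 5.14% and 4.28% of all probe sets. Strn-Mlck, a kinase of the myosin light chain family, was rhythmic in both genotypes, with log2 amplitudes of 0.21 and 0.20 and peaks at ZT 19.5 and ZT 19.7 (adjusted p = 0.0313 and 0.0438, limma). The troponin C gene TpnC73F passed in fmn, with an amplitude of 0.38 and a peak at ZT 8.28 (adjusted p = 0.00705, limma), and had an amplitude of 0.04 in control (adjusted p = 0.885). Its difference in rhythm did not pass the test (adjusted p = 0.998, limma). The fmn signals of TpnC73F were 269 at ZT 4, 309 at ZT 8 and 262 at ZT 12, against 183 to 206 at the other times. The fmn arrays of ZT 4 and ZT 8 also held transcripts of other organs, and their part in this was not tested.

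ZT 0 and ZT 24 are one point of the light cycle, so their arrays show how far a level can differ between pools of heads. Apart from Act88F, the 5 genes stayed within the threshold of size between these arrays in both genotypes, with log2 differences of ZT 24 minus ZT 0 from -0.19 (Mlc1) to 0.01 (up) in control and from -0.12 (Mlc2) to 0.12 (up) in fmn. Of all probe sets, 10.6% in control and 9.43% in fmn reached it. Act88F reached it in control, with -1.86, and not in fmn, with 0.01. Within a genotype, the SD of the log2 signal was 0.55 for Act88F, a value that 0.845% of all probe sets reached. It was 0.06 for Tm2, 0.07 for up, 0.07 for Mlc1, 0.10 for Mlc2 and 0.11 for Argk1, and 64.4% to 95.5% of all probe sets varied at least as much as these 5.

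The 5 genes whose log2 signal followed that of Act88F most closely over the 14 arrays, out of 7656 probe sets that name 1 gene, were CG15890, CG11596, CG7702, Scp1 and MCPH1, with Pearson correlations of 0.816, 0.797, 0.796, 0.780 and 0.771. They were picked for this correlation, and the arrays share their tissue and scaling, so the values are a description. Scp1 encodes a calcium-binding protein of the sarcoplasm. Its signal was 856 for control at ZT 0 and 948 for fmn at ZT 4, and it lay between 164 and 502 on the other 12 arrays. CG15890, by contrast, had 619 and 628 on these arrays and between 474 and 681 on the rest, with no peak on that pair of arrays. Without the control array of ZT 0 the correlations were 0.831 for CG15890 and 0.676 for Scp1. The other 5 contractile genes followed Act88F less closely, with Pearson correlations over the same 14 arrays of 0.143 for up, 0.186 for Argk1, 0.356 for Tm2, 0.419 for Mlc1 and 0.594 for Mlc2.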

How the data were processed

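Total RNA of pooled male and female heads was labeled with biotin and hybridized to Affymetrix Drosophila Genome 2.0 arrays, 1 array per genotype and time point. For each probe set the authors deposited 1 intensity per array, computed with MAS5 and not on a log scale (version and scaling target not given in the sources used here). Their later normalization and Present calls are not part of these values. The number of arrays limits the precision.

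Signals were converted to log2 and centred on the 75th percentile of each array. A probe set that was dimmer than 100 on 7 or more of the 14 arrays was not tested and 8641 stayed, among them all 6 probe sets of the contractile genes. Dimmer genes (fln and TpnC4) are given by their signals. Genotypes were compared with limma 3.58.1 in R 4.3.3 (lmFit and eBayes) over 14 arrays without a block, which follows the grouping in the study's methods, and p-values were adjusted over all probe sets tested (Benjamini-Hochberg). For rhythm, cosine and sine terms (period 24 h) were fitted to both genotypes at once and given an F test. The fits were tested on simulated data.

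Of the 18769 probe sets, 13646 name 1 gene, 402 several and 4721 none. Symbols were updated through the reference table of the Release 6 assembly. A symbol that is only a synonym of a member but carries another gene's identifier (MRP, 1 probe set) was left out. The genes named are all members, the other contractile genes that passed a test or belong to thoracic muscle, and the 5 genes most like Act88F, and a few of the contractile genes that did not pass were named after their values were seen. Members and lists were chosen with earlier results of these data known.

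Pairing by time point was checked: deviations from the genotype's mean correlated by 0.132 to 0.503 between the 2 arrays of a time, so a fit blocked by time point was added. Further settings varied the scaling, the test, the filter, the pseudocount and the arrays used. Counts of the other contractile genes under these alternatives, and the range of Act88F over 12 arrays, were added after seeing the data.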

Additional observations from a re-analysis of the deposited data

Results flagged for a closer look

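Among the 12 sets of 7 arrays (6 contractile genes in each genotype), 1 held an array far from the others, the signal of Act88F on the control array of ZT 0, at 635 against 334 on the next control array. The gap was 0.651 of the whole range on the linear scale, past the critical value for 7 arrays. On the log2 scale the gap was 0.494 of the range, which does not pass it.

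The other genes and marker lists given in the text make 78 such sets together with these, of which 16 held a far array on the linear scale. The sets share the same arrays, and Scp1 was picked for following Act88F, so this count cannot be set against chance. Of these 16, 9 also passed on the log2 scale and 7 did not, which besides Act88F were fln in fmn, TpnC4 and Scp1 in both genotypes and the gut genes in fmn. For fln the far signals were 404 (control, ZT 0) and 130 (fmn, ZT 4), for TpnC4 they were 123 and 166, and for Scp1 they were 856 and 948, on the same arrays. The summed testis genes stood out there at 2668 and 2163, and those of the male accessory gland at 3176 and 3449. The summed gut genes stood out at 3208 (control, ZT 0) and 5936 (fmn, ZT 8), and the summed ovary genes at 5254 (fmn, ZT 8). On the fmn array of ZT 12, the summed neuronal genes were far below the other fmn arrays at 2305, a gap that lay mostly in elav while brp was at its highest fmn signal, and a dimmer probe set of Mf was above them at 9568.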

How the results depend on the processing

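Over 24 alternatives the number of changed probe sets ran from 506 to 751, within 1.5 times the 629 reported. With the time point as a replicate block it was 695, and 1 of the 6 contractile genes changed, as before. The block changed no other call on the 6. The 1 changed gene, Argk1, became 0 without scaling, under quantile normalization and with 3 arrays left out (control at ZT 0, fmn at ZT 4 and ZT 8), and 0 to 1 when leaving out 1 array at a time. Its log2 difference was -0.30 to -0.32 in these except under quantile normalization (-0.19), where the cause was not tested. The log2 difference of Act88F ran from -0.25 to 0.059 when leaving out 1 array, and the 0.059, without the control array of ZT 0, was the 1 value of the 6 genes that turned in sign. That of Mlc1 kept its sign and missed an adjusted p of 0.05 with arrays centred on the median (0.106) and under quantile normalization (0.0519). Rhythmic probe sets numbered 444 in control and 370 in fmn, 256 and 219 without ZT 24, 73 and 59 with no filter, and 198 to 343 and 167 to 324 when leaving out 1 time point, and 0 of the 6 genes were rhythmic in any of these. With 14 arrays and no repeat within a time point, the number of arrays limits the precision of each amplitude.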

Other observations

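Some contractile genes have several probe sets that did not move alike, as seen after their values were known. A dimmer probe set of sls, the gene of the titin-like protein of the Z-disc, rose from 201 ± 19.7 in control to 277 ± 43.0 in fmn heads (SD, n = 7 arrays each), or by 0.44 on the log2 scale (SE 0.10, adjusted p = 0.00645 by limma). On the fmn array of ZT 12 its signal was 191, within the control range of 168 to 227. It was 262 to 318 on the other fmn arrays. The other 2 probe sets of sls differed by 0.00 and -0.10. A dimmer probe set of Mf, the myofilin gene, fell by 0.39 (adjusted p = 0.000193, limma), against -0.23 on the brighter one. For tmod, which encodes the tropomodulin that caps actin filaments, a probe set that the filter left out was 127 ± 16.7 in control and 54.3 ± 16.3 in fmn, a log2 change of -1.29 in the fit over all probe sets (adjusted p = 0.00148, limma), against -0.15 on the brightest. The 6 probe sets of Msp300 had log2 differences from -0.56 to 0.31, and only the brightest passed both thresholds. Some of its dimmer ones were too dim for the filter. Whether sequence differences under the probes have a part in these values was not tested.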
